A study of Mus musculus with 6 samples.

Results

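The matrix metalloproteinases (MMPs), the ADAMTS proteases and their tissue inhibitors (TIMPs) were described in femurs of ovariectomized (OVX) mice. The genes were chosen by name among protein-coding genes: Mmp or Timp followed by a number, or Adamts followed by a number alone, leaving out Mmp8 and Mmp9. This gave 43 of 54532 genes listed, namely 20 Mmp, 19 Adamts and 4 Timp genes. The labels describe 6 wild-type mouse samples in 2 groups of 3, OVX with saline and OVX femurs with zingerone, a ginger compound given orally for 8 weeks at a daily 100 mg/kg. Names tied 3 columns of the table to labels, all OVX with saline, here called libraries 1, 2 and 3. The zingerone libraries were not analysed here, because 3 columns of the table carry names that match no label, and no intact group is described. What follows is therefore the level of each gene in OVX bone and its spread between libraries, not an effect of ovariectomy or of zingerone. The titles give 8, 9 and 10 weeks to libraries 1, 2 and 3, and the labels name both femoral tissue and RAW264.7, a line of mouse macrophages. The design text calls the samples biological replicates but names no separate animals, so SDs measure only the spread between these libraries, which may be technical. The p-values test only whether reads differed between these libraries beyond counting noise.

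MMPs and ADAMTS proteases are zinc enzymes that cut proteins outside the cell. Most MMPs are made as inactive precursors, and TIMPs bind the active site to stop them. In bone, collagenases and membrane-bound MMPs help clear the matrix of cartilage and bone, ADAMTS members trim procollagen and cut proteoglycans, and Mmp14, with Timp2 as a bridge, activates the gelatinase precursor encoded by Mmp2.

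The libraries held 16581579 to 17017907 reads over all genes, and the 43 genes took 0.0858%, 0.168% and 0.113% of them in libraries 1, 2 and 3. Levels are in FPKM, fragments scaled to gene length and library size, so that genes of different length can be set side by side. The libraries held RNA of several tissues, not of a macrophage line alone: the adult globin gene Hbb-bs stood at 20397 to 26898 FPKM, the bone collagen gene Col1a1 at 364 to 1597 and the muscle actin gene Acta1 at 28.3 to 441. By summed levels, library 2 stood apart in chondrocyte, osteoblast and skeletal muscle markers. Library 1 stood apart, as the lowest, in osteoclast markers. Its sum of 6 tendon and synovial markers was also the lowest, mostly through Prg4, at 0.635, 44.4 and 56.3 FPKM. Only 3 of these 6 markers were lowest in library 1, and 1 was highest there. The summed level of 13 chondrocyte markers was 25.5, 710 and 56.0 FPKM in libraries 1, 2 and 3, that of 10 osteoblast markers 2639, 6286 and 1849, that of 9 osteoclast markers 319, 886 and 732, and that of 10 skeletal muscle markers 1651, 143 and 990. No marker on these 4 lists was at 0 in all libraries. In bulk RNA, more cells of a type and more RNA per cell cannot be told apart.

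Averaged over the libraries, 20 of the 43 genes reached 1 FPKM, 8 MMPs, 8 ADAMTS genes and all 4 TIMPs. Among all protein-coding genes the share was 53.4%. A further 20 genes had reads but a lower mean, and 3 had none. The MMPs summed to 84.0, 309.7 and 161 FPKM in libraries 1, 2 and 3, the ADAMTS genes to 33.0, 45.9 and 35.5, and the TIMPs to 61.1, 81.4 and 73.8. Mmp13 alone made up 34.2%, 69.2% and 63.7% of the MMP sum. The MMP sum varied more between libraries than the ADAMTS and TIMP sums, and without Mmp13 it was 55.3, 95.4 and 58.6 FPKM. Just inside the limit of 1 FPKM was Adamts6, at a mean of 1.03, and just outside was Mmp16, at 0.958.

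**Figure D1:**
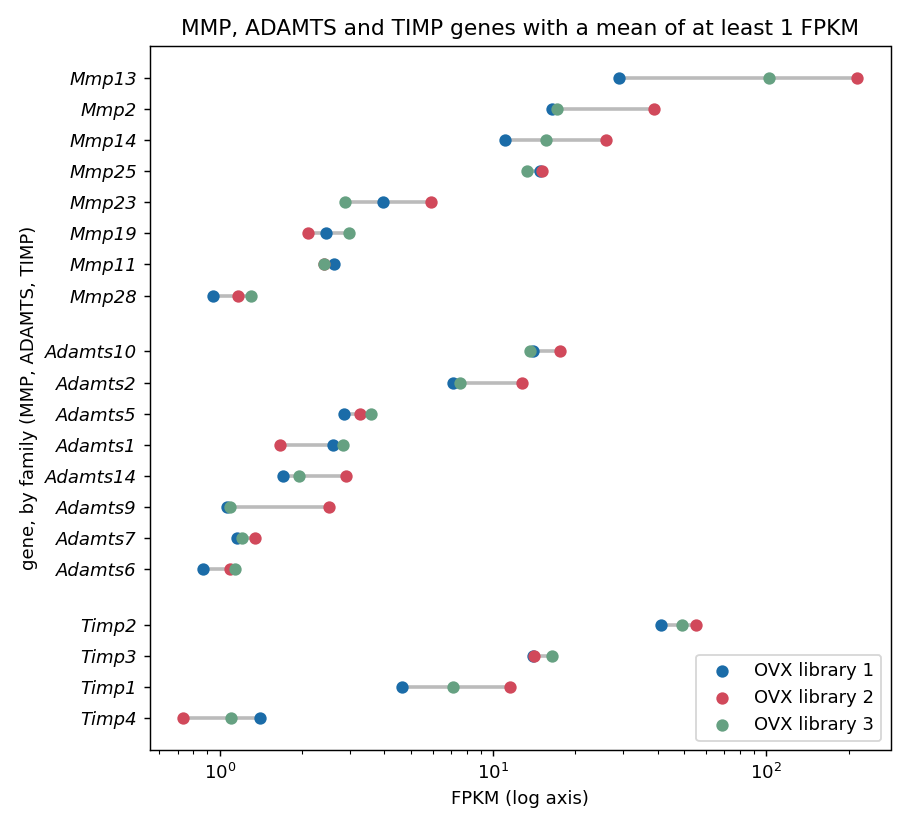
FPKM (log axis) of the 20 genes that averaged 1 FPKM or more, by family, with 1 point for each of the 3 OVX libraries and a grey line from the lowest to the highest. Mmp13 spans 28.8 to 214 FPKM, whereas Mmp25 and Mmp11 have points close together.

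Mmp13, collagenase 3, which cuts fibrillar collagen and is made by osteoblast-lineage cells and hypertrophic chondrocytes, was the most abundant of the 43 genes. Its level was 28.8 FPKM in library 1, 214 in library 2 and 103 in library 3, from 1329, 9650 and 4536 reads, a mean of 115 ± 93.4 (SD, n = 3). Library 1 was the lowest and library 2 the highest, and the exact Poisson 95% intervals of 27.2 to 30.4, 210.0 to 219 and 99.7 to 106 FPKM did not meet. Library 2 was 7.45-fold and library 3 was 3.57-fold above library 1. The chi-square test on reads called this difference, with an adjusted p too small for the calculation to hold. Mmp1b, the other collagenase gene on the list, had 0 reads in all libraries, which allows up to 0.120, 0.123 and 0.125 FPKM.

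Mmp13 (ENSMUSG00000050578, mm10 chromosome 9, 7272514 to 7283331, plus strand) opens a cluster of 10 Mmp genes that spans 427 kb and ends with Mmp7. Of these, 8 are among the genes described here. The pattern within the cluster was one of high and silent neighbours. The 7 cluster genes other than Mmp13 were at a mean of 0.946 FPKM or less. Mmp27 stood at 1.05, 0.860 and 0.931 FPKM, from 40, 32 and 34 reads. Mmp3, stromelysin 1, had 1, 2 and 9 reads, Mmp10, stromelysin 2, had 1, 4 and 0, and Mmp12, the macrophage elastase, had 12, 9 and 20. Mmp20, known from tooth enamel, and Mmp7, matrilysin, had 0 reads throughout, as Mmp1b did. Of the genes left out, Mmp8, the neutrophil collagenase inside the cluster, stood at 160, 163 and 162 FPKM. Its level hardly differed between libraries, while that of Mmp13, 286 kb away, differed 7.45-fold. Neighbours such as Mmp3 and Mmp10 are similar in sequence, so single reads of these genes may belong to a relative.

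**Figure D2:**
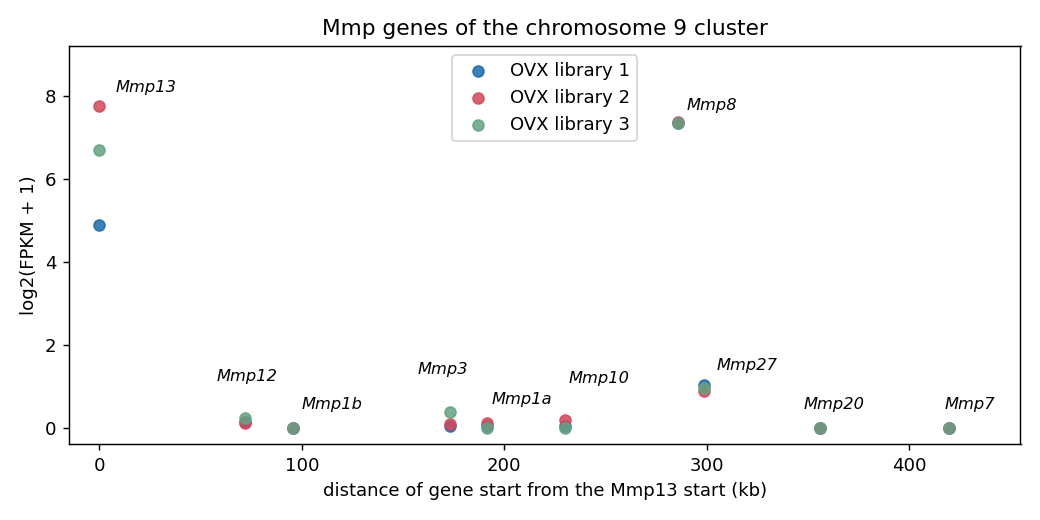
log2(FPKM + 1) of the 10 Mmp genes of the chromosome 9 cluster against the distance of each gene's start from the Mmp13 start in kb, with 1 point for each of the 3 OVX libraries. Mmp13 and Mmp8 stand far above the others, and the 3 points of Mmp8 coincide while those of Mmp13 do not.

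The sequences before the start of 3 cluster genes and of Mmp14, a gene outside the cluster, are shown because Mmp13 shares letters with neighbours whose levels were near 0. Each is the 250 bases before a RefSeq gene start (build GRCm38.p6), read 5′ to 3′ on the gene's strand. The windows are chr9:7272264-7272513 for Mmp13, chr9:7445572-7445821 for Mmp3, chr9:7502092-7502341 for Mmp10 and chr14:54431348-54431597 for Mmp14, all on the plus strand. Capitals mark matches on either strand to 4 motifs, none of which overlap here. The AP-1 motif searched was TGANTCA. The RUNX motif searched was TGTGGT, which reads ACCACA on the other strand. The ETS motif searched was AGGAAG. The TATA box motif searched was TATAAA.
Mmp13: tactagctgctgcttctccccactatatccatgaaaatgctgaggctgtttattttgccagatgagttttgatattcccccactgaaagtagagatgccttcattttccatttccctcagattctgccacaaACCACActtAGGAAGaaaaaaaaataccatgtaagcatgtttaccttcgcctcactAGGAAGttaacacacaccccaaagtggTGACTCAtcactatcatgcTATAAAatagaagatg
Mmp3: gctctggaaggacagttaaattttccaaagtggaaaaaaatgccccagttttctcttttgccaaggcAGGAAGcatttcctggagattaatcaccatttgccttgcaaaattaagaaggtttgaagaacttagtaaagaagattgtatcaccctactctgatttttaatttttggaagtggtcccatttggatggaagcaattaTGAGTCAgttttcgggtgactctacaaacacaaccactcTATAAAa
Mmp10: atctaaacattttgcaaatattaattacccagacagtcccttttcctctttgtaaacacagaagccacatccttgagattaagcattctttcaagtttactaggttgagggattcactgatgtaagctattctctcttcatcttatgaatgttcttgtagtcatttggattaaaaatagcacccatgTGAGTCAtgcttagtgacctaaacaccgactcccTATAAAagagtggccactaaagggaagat
Mmp14: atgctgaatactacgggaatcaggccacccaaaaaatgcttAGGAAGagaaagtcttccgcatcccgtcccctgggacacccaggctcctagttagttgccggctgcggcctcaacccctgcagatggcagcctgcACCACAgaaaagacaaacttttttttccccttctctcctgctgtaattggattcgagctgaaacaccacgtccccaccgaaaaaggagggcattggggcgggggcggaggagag

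The Mmp13 window holds the AP-1 letters 35 to 29 bases before the start, the RUNX letters on the other strand 118 to 113 bases before it, ETS letters at 109 to 104 and at 62 to 57, and the TATA letters at 16 to 11. In Mmp3 the AP-1 letters lie 46 to 40 bases and in Mmp10 63 to 57 bases before the start. A RefSeq promoter was matched for 30 of the 43 genes, among them all 8 in the cluster. As 3 genes have 2 RefSeq starts, a gene was counted where any of its windows held the letters. The AP-1 letters occurred in 7 of these 8 and in 0 of the other 22. By window they occurred in 7 of 33, against 6.75% of all 32851 promoter windows. With only the window nearest each listed gene start, 6 of the 8 genes held them. Mmp12 held them only before a RefSeq start 2993 bases from its listed gene start. The TATA letters occurred in 6 of the 8 and in 2 of the other 22. By window they occurred in 8 of 33, against 12.4% of all windows. For the RUNX and ETS letters the counts were 6 and 12 of 30 genes. By window they were 6 and 13 of 33, against 14.0% and 29.5% of all windows. Mmp13 was thus the only abundant gene among the 7 with AP-1 letters, since Mmp3, Mmp10, Mmp12, Mmp1b, Mmp20 and Mmp7 were at a mean of 0.133 FPKM or less. These matches describe letters and are not shown to be bound.

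Mmp2, the gelatinase that digests denatured collagen, and Mmp14, the membrane-bound MMP that activates it, followed among the proteases. Mmp2 (ENSMUSG00000031740, chromosome 8, 92827291 to 92853420, plus strand) stood at 16.4, 38.8 and 17.2 FPKM in libraries 1, 2 and 3. Libraries 1 and 3 were close together, and library 2 was 2.37-fold above library 1 (chi-square adjusted p = 1.22e-159, by the method of Benjamini and Hochberg). Without library 2 the call was lost, with an adjusted p of 0.750 by the same test. Mmp14 (ENSMUSG00000000957, chromosome 14, 54431612 to 54445364, plus strand) stood at 11.0, 25.8 and 15.6 FPKM (chi-square adjusted p = 1.64e-136). Here library 3 also lay above library 1, by 1.42-fold, and this difference stayed called without library 2 (chi-square adjusted p = 2.21e-15). Within a library, the level of Mmp2 was 1.49, 1.51 and 1.10 times that of Mmp14. The order of the 2 genes depends on gene length: with the longest coding transcript in place of the listed length, the mean of Mmp14 became 40.1 FPKM, above that of Mmp2 at 26.4.

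Mmp25, a glycolipid-anchored membrane MMP known from neutrophils, behaved differently. It stood at 14.8, 15.1 and 13.3 FPKM, a mean of 14.4 ± 0.945 (SD, n = 3). The range was 1.13-fold, called by the chi-square test (adjusted p = 0.00887) and lost without library 3 (adjusted p = 0.980). The 8 neutrophil markers summed to 24835, 27187 and 25294 FPKM, also a narrow range, as were the ranges of the macrophage and endothelial sums. On the log2(FPKM + 1) scale the range of Mmp25 was 0.168, near the median of 0.175 for all genes tested. The part of neutrophils in its level was not tested. The other membrane-type genes were lower. Mmp16 stood at 0.721, 1.66 and 0.488 FPKM, from 108, 243 and 70 reads, so that library 2 was 3.41-fold above library 3. Mmp15 stood at 0.676 to 0.751 FPKM and Mmp17 at 0.283 to 0.457. Mmp24, known from neurons, had 1 read in all.

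Among the remaining MMPs, Mmp23 was the highest, at 3.96, 5.94 and 2.87 FPKM in libraries 1, 2 and 3 (chi-square adjusted p = 4.85e-09). Library 3 was the lowest, an order that differs from that of Mmp13 and Mmp14. Mmp19 stood at 2.44, 2.10 and 2.96 FPKM, with library 2 lowest (chi-square adjusted p = 0.0327). That call was lost without library 2 (adjusted p = 0.303) or library 3 (0.298). Mmp11, stromelysin 3, which is cut to its active form inside the cell by furin, stood at 2.63, 2.42 and 2.40 FPKM and did not pass the test (chi-square adjusted p = 0.717). Mmp28, epilysin, at 0.941, 1.17 and 1.30 FPKM, did not pass it either (adjusted p = 0.303). Mmp21 had 3 or 4 reads in each library. Mmp11, Mmp19 and Mmp28 each overlap a gene on the opposite strand with reads of its own, such as Chchd10 at 28.2 FPKM beside Mmp11 and 1700020L24Rik at 12.6 FPKM beside Mmp28. As the sources do not state whether strand was used in counting, reads from any exon shared by such a pair may not be told apart. Overlap was taken from gene start to gene end, and shared exons were not examined. By this measure 22 of the 43 genes overlap another listed gene.

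Of the ADAMTS genes, Adamts10, a protease tied to fibrillin microfibrils, was the most abundant, at 14.0, 17.5 and 13.6 FPKM (chi-square adjusted p = 8.70e-11). Without library 2 it did not pass the test (adjusted p = 0.455). Its relatives of the same class were lower. Adamts6 stood at 0.868, 1.09 and 1.14 FPKM and did not pass the test (adjusted p = 0.185), Adamts17 stood at 0.0820 to 0.191 FPKM, and Adamts19 had 1 read in all.

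The procollagen N-proteinases, which cut the amino-terminal propeptide from fibrillar procollagens, were led by Adamts2. It stood at 7.16, 12.7 and 7.59 FPKM in libraries 1, 2 and 3 (chi-square adjusted p = 1.15e-66), with library 2 above both others. Adamts14 stood at 1.70, 2.90 and 1.96 FPKM (chi-square adjusted p = 2.52e-06), with the same order of libraries. The level of Adamts2 was 4.20, 4.38 and 3.88 times that of Adamts14 within a library, a ratio of 4.16 ± 0.252 (SD, n = 3). The third gene of the class, Adamts3, stood at 0.597 to 0.679 FPKM. Without library 2, the differences of Adamts2 and Adamts14 were no longer called (chi-square adjusted p = 0.561 and 0.517). Col1a1, whose product is a substrate of this class, stood at 614, 1597 and 364 FPKM, so that the substrate varied 4.38-fold and Adamts2 1.78-fold. Library 3 held the lowest level of Col1a1 but not of Adamts2.

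The aggrecanases and related enzymes, which cut aggrecan and versican, did not share an order. Adamts5, the main aggrecanase of mouse cartilage, stood at 2.85, 3.26 and 3.58 FPKM (chi-square adjusted p = 0.00662), highest in library 3. That call was lost without library 1 (adjusted p = 0.215) or library 3 (0.150). Adamts9 stood at 1.06, 2.50 and 1.09 FPKM (chi-square adjusted p = 9.85e-46), highest in library 2, and the difference was not called without it (adjusted p = 0.933). Adamts1 stood at 2.59, 1.66 and 2.82 FPKM (chi-square adjusted p = 2.95e-06), lowest in library 2, and was likewise not called without it (adjusted p = 0.678). Aggrecan itself, Acan, stood at 0.0930, 30.0 and 1.20 FPKM. The substrate gene thus varied 323-fold while the level of Adamts5 varied 1.26-fold. The fold of Acan rests on a level near 0 in library 1. On the log2(FPKM + 1) scale the ranges were 4.83 for Acan and 0.25 for Adamts5.

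Lower members of this class differed as well, from few reads. Adamts4 stood at 0.168, 0.457 and 0.641 FPKM, from 14, 37 and 51 reads. Adamts15 stood at 0.223, 0.567 and 0.257 FPKM, Adamts8 had 5, 6 and 23 reads, and Adamts20 had 8, 2 and 7. Adamts15 was highest in library 2, Adamts4 and Adamts8 in library 3. Of the genes whose products cut the cartilage protein COMP, Adamts7 stood at 1.15, 1.34 and 1.20 FPKM without passing the test (chi-square adjusted p = 0.630), and Adamts12 at 0.212, 0.717 and 0.249 FPKM. Adamts13, which cuts von Willebrand factor and is known from liver, had 14, 7 and 11 reads. Adamts18 stood at 0.0512 to 0.227 FPKM, and Adamts16 had 2 reads in all.

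The inhibitors were led by Timp2 (ENSMUSG00000017466, chromosome 11, 118301069 to 118355740, minus strand), at 41.1, 55.0 and 49.2 FPKM in libraries 1, 2 and 3 (chi-square adjusted p = 3.41e-24). Its range of 1.34-fold was narrow beside that of Mmp13. Timp2 made up 67.2% ± 0.498 of the TIMP sum (SD, n = 3), almost the same share in each library. Timp3, the inhibitor held in the matrix, which also blocks aggrecanases, stood at 13.9, 14.1 and 16.4 FPKM (chi-square adjusted p = 1.30e-06), and the call was lost without library 3 (adjusted p = 0.810).

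Timp1 and Timp4 were the inhibitors that differed most, in opposite directions. Timp1 (ENSMUSG00000001131, chromosome X, 20870166 to 20874735, plus strand) stood at 4.63, 11.6 and 7.15 FPKM, from 71, 173 and 105 reads. Library 2 was 2.50-fold and library 3 was 1.55-fold above library 1 (chi-square adjusted p = 1.34e-09 over all 3 libraries, and 0.0381 without library 2). Timp4, the inhibitor of restricted tissue range that is known from heart and muscle, stood at 1.40, 0.735 and 1.10 FPKM, highest in library 1 and lowest in library 2 (chi-square adjusted p = 8.85e-05). Without library 2 it was not called (adjusted p = 0.143), and without library 1 its mean of 0.917 FPKM was too low to be tested. All 10 skeletal muscle markers were likewise lowest in library 2, against 5163 of all 14011 genes tested, and 9 of 10 were highest in library 1, against 33.3%. Adamts1 and Mmp19 were also lowest in library 2, whereas all 4 tested adipocyte markers were highest there. The part of muscle or any other tissue in the level of Timp4 was not tested. Timp1, Timp3 and Timp4 lie within the synapsin genes Syn1, Syn3 and Syn2 on the opposite strand, which stood at 0.406, 0.0823 and 0.0733 FPKM.

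Set against the proteases, the TIMP sum was 0.727, 0.263 and 0.458 times the MMP sum in libraries 1, 2 and 3. Without Mmp13 the ratios were 1.11, 0.854 and 1.26, so most of the difference between libraries came from the level of Mmp13. The level of Timp2 was 3.73, 2.13 and 3.16 times that of Mmp14 and 2.51, 1.42 and 2.87 times that of Mmp2. Both ratios were lowest in library 2. These are ratios of RNA levels and depend on the listed gene lengths.

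By the chi-square test, 16 of the 20 tested genes differed between libraries beyond counting noise, against 38.7% of all 14011 genes tested. The test compares libraries, not conditions, and calls genes with many reads more easily. The genes that did not pass were Mmp11, Mmp28, Adamts6 and Adamts7. A range of 2-fold or more on the log2(FPKM + 1) scale was found for 4 of 20, Mmp13, Mmp2, Mmp14 and Timp1, against 5.89% of all genes tested. The median range was 0.44 on this log2 scale for the 20 genes and 0.17 for all genes tested. Highest in library 2 were 12 of 20, against 34.8% of all genes tested, 6 were highest in library 3, against 31.9%, and 2, Mmp11 and Timp4, in library 1, against 33.3%. In all, 11 of 20 were both called and highest in library 2, against 13.0%. Without library 2, 8 of 20 were called, against 18.0%, namely Mmp13, Mmp14, Mmp23, Mmp25, Adamts5, Timp1, Timp2 and Timp3. A 2-fold range then remained for Mmp13 alone, against 1.98% of all genes tested.

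**Figure D3:**
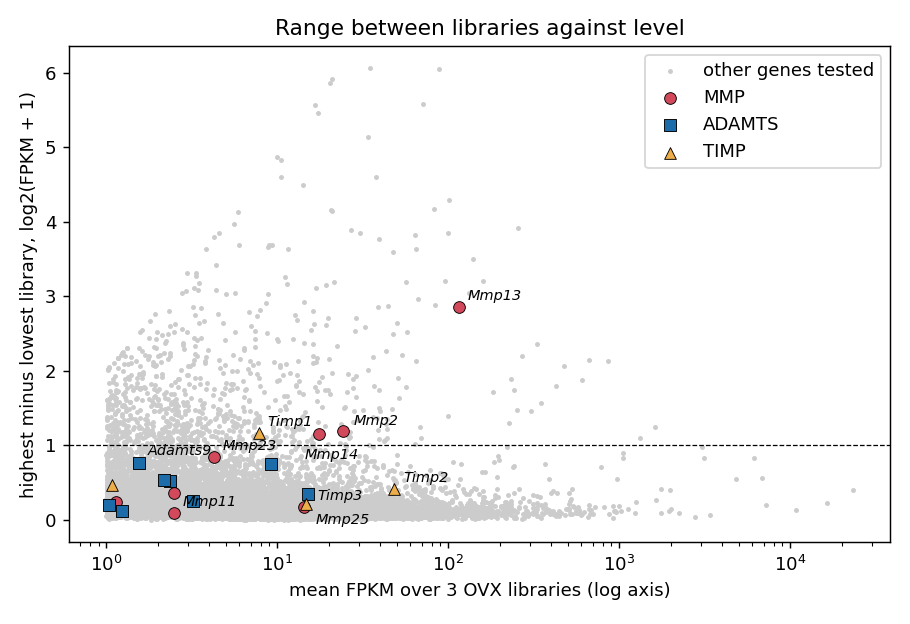
Difference between the highest and lowest of the 3 OVX libraries on the log2(FPKM + 1) scale against mean FPKM (log axis) for the 14011 genes tested, with the 20 MMP, ADAMTS and TIMP genes marked. The dashed line is a 2-fold range, and 4 of the 20 genes lie above it, with Mmp13 at 2.85.

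Beside the cell markers, the genes fell into several orders. Mmp13, Mmp14 and Timp1 were lowest in library 1, between in library 3 and highest in library 2. In all, 9 of the 20 tested genes were lowest in library 1 and highest in library 2, among them Timp2, Adamts14 and Adamts7. So were 7 of the 8 tested osteoclast markers, 10 of the 12 tested chondrocyte markers and the osteocyte markers Dmp1 and Phex. The order was also held by 3 osteoblast markers and by some markers of other lists. Of all 14011 genes tested, 34.8% were highest in library 2 and 4566 were lowest in library 1. At most 4566 could thus hold the whole order, and the exact share was not counted. Among the osteoclast markers, the protease gene Ctsk stood at 85.4, 397 and 330 FPKM, and the phosphatase gene Acp5 had 109, 368 and 253. On the log2(FPKM + 1) scale, the median difference from library 1 was 1.22 in library 2 and 0.61 in library 3 for osteoclast markers, and the differences were 2.85 and 1.80 for Mmp13, 1.16 and 0.47 for Mmp14 and 1.16 and 0.53 for Timp1. Osteoblast markers had medians of 1.36 and -0.42. Of these 10 markers, 7 were lowest in library 3, as Mmp23 was, at 0.48 and -0.36, and 3, Ibsp, Spp1 and Alpl, were lowest in library 1. All 4 tested adipocyte markers were also highest in library 2 and lowest in library 3, with medians of 0.73 and -0.71. Lowest in library 3 were 4 of the 20 tested genes, Mmp23 among them, against 4282 of all 14011 genes tested. Mmp2, Adamts2 and Adamts9 differed in library 2 and little between libraries 1 and 3. Chondrocyte markers had medians of 4.71 and 0.25. The part of these cell types in the levels was not tested.

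**Figure D4:**
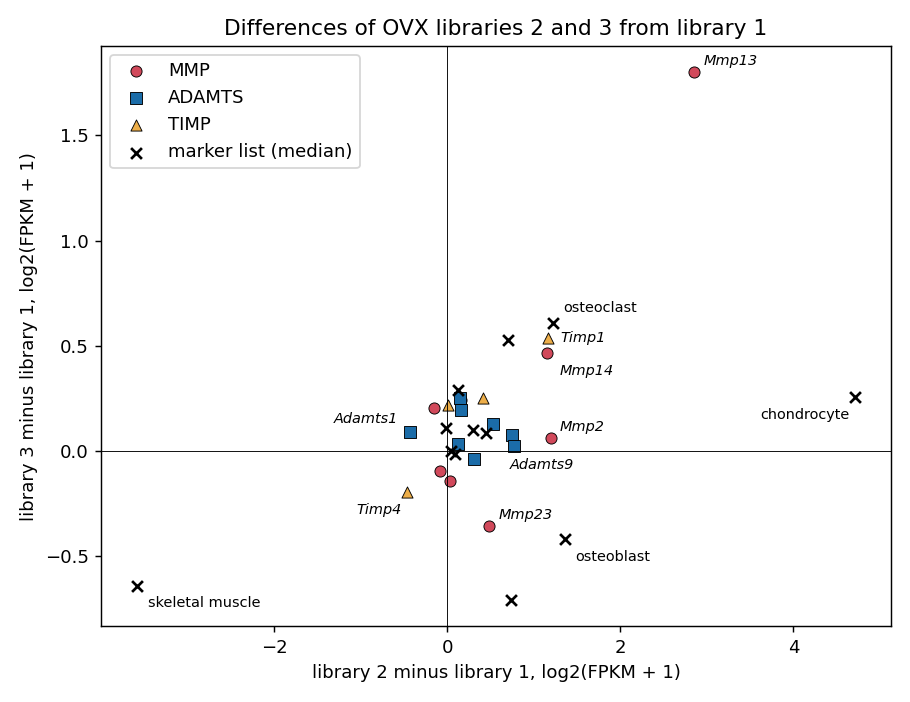
Difference of library 3 from library 1 against that of library 2 from library 1, both on the log2(FPKM + 1) scale, for the 20 MMP, ADAMTS and TIMP genes and for the medians of 12 cell type marker lists (crosses). Mmp13 lies at 2.85 and 1.80, Mmp14 and Timp1 lie near the osteoclast list, and Timp4 lies on the side of skeletal muscle.

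Within a library, the level of Mmp13 was 0.312, 0.702 and 0.696 times that of the bone sialoprotein gene Ibsp and 0.264, 0.582 and 0.406 times that of Acp5. Against Col1a1, another osteoblast marker, the ratio was 0.0469, 0.134 and 0.282, highest in library 3. The ratio thus differed between libraries for each of these markers, and its order depended on the marker. Col10a1, the collagen of hypertrophic chondrocytes, stood at 0.0185, 58.2 and 2.63 FPKM, and Mmp13 in library 1 at 28.8 FPKM. Which cells held the Mmp13 RNA was not tested. Among 5 tested osteocyte markers, 3 were highest in library 2 and 3 were lowest in library 1. Dmp1, a mineralization protein gene, stood at 17.4, 62.8 and 30.0 FPKM, and Sost, the sclerostin gene, at 36.5, 24.2 and 32.6.

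Genes that act with these proteases were listed separately: activating enzymes, plasminogen system genes, receptors, ADAM proteases and other inhibitors. Of these 34 genes, 24 reached a mean of 1 FPKM, and 19 of the 24 differed between libraries, against 38.7% of all genes tested. Without library 2 the count was 10 of 23, against 18.0%. Meltf, melanotransferrin, had the widest range, at 0.0140, 7.51 and 1.27 FPKM. Pcsk6, a proprotein convertase, stood at 4.43, 12.7 and 5.20 FPKM and Bmp1, the procollagen C-proteinase, at 6.25, 16.8 and 7.38. Adam12 stood at 2.17, 5.63 and 2.32 FPKM, and Fap, a fibroblast protease, at 11.0, 23.3 and 10.7. These 5 genes were highest in library 2. Reck, a membrane-anchored inhibitor of MMPs, stood at 3.31, 5.76 and 3.84 FPKM. The activating convertase gene Furin stood at 11.0, 13.1 and 12.4 FPKM, and Plg, which encodes plasminogen and is known from liver, had 1 read in all.

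Of 14 substrate genes, 12 were tested and all 12 differed between libraries, against 38.7% of all genes tested. Highest in library 2 were 10 of the 12, against 34.8%. Acan, Col2a1, Col9a1, Col10a1 and Comp are also on the chondrocyte list, and Col1a1, Col1a2 and Spp1 on the osteoblast list. The counts and range of the substrates thus partly repeat those of the markers. Without library 2, 8 of 9 tested differed, against 18.0%. The median log2 range was 2.24, far above the 0.44 of the proteases and inhibitors. Besides Acan, Col10a1 and Col1a1, the widest ranges were those of Col9a1, at 0.0914, 29.8 and 0.0597 FPKM, Comp, at 4.17, 73.2 and 14.2, and Col2a1, at 17.1, 165 and 12.4. Spp1, which encodes osteopontin, stood at 102, 527 and 357 FPKM, an order shared with Mmp13. Vwf, the substrate of the Adamts13 product, stood at 14.2, 9.40 and 14.6 FPKM, lowest in library 2.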

How the data were processed

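Per the labels' protocols, femurs were frozen and ground and total RNA was sequenced. Trimmomatic, FastQC, STAR, featureCounts and the build mm10 are named per the submitters' processing notes. Tool versions were not given in the sources used here, nor was the use of strand. FPKM values were deposited by the authors in a table that also lists 1 length per gene, in bases. The 3 columns of values whose names match no label were not used, so the planned comparison of zingerone with OVX by limma was not run.

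Multiplying FPKM by length gave steps of 1 read, and 100% of values in each library were whole reads within 0.01 read. Summed over genes these were 17017907, 16964740 and 16581579 reads in libraries 1, 2 and 3. Genes averaging 1 FPKM or more were tested by a chi-square test of reads against library totals, with Benjamini-Hochberg adjustment over all 14011 genes tested and a threshold of 0.05. The test was checked on simulated counts with counting noise alone. That check does not cover extra spread between libraries. Ranges are on log2(FPKM + 1), which understates differences of low genes. Intervals are exact Poisson at 95%, a count of 0 allows up to 3 reads, and both cover counting error only. The listed length equalled the union of exons in GENCODE M21 for 41 of 43 genes, and coordinates were the same for 42.

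The genes and lists were chosen with earlier results of these data known. All 43 genes are accounted for. Those averaging 1 FPKM or more are given in every library, and of the other lists at most 6 of those past the test with the widest range, besides genes (Reck, Furin, Plg, Ibsp, Acp5, Ctsk, Sost, Dmp1, Phex, Alpl, Col1a1, Vwf, Hbb-bs, Acta1, Mmp8) chosen after their values were seen. Some items within the lists are not reported here. Of the 12 marker lists, 90 of 90 symbols were in the table. The summed levels in libraries 1, 2 and 3 of those not given with the results were 86.4, 136 and 107 FPKM for osteocyte, 453, 462 and 470 for macrophage, 53.3, 52.9 and 52.9 for endothelial, 277, 320 and 288 for stromal, 13.8, 74.2 and 78.2 for tendon and synovial, 157, 314 and 103 for adipocyte, and 36551, 39504 and 45790 for erythroid markers. The software was scipy 1.17.1, pandas 2.3.3 and numpy 2.4.6 under Python 3.11.15, with figures by matplotlib 3.10.9.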

Additional observations from a re-analysis of the deposited data

How the results depend on the processing

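The number of genes tested, 20 of 43, was 40 without a filter and 9 with a minimum mean of 5 FPKM. At that minimum 9 differed between libraries, in place of 16, since fewer genes were tested. With 1 library left out, the number that differed ran from 8 to 15, lowest without library 2. The number with a 2-fold range, 4, was 2 with a pseudocount of 5 and 6 with one of 0.1, and ran from 1 to 4 with 1 library left out. The network count of 19 was 10 without library 2, an alternative chosen after seeing the data, and that of substrates, 12, was 8. Scaling by median-of-ratios factors or by the reads listed changed no call of the 20 genes. Without a filter 22 genes differed: 7 untested ones were gained (Mmp16, Adamts4, Adamts12, Adamts15, Mmp3, Adamts18 and Adamts8) and Mmp19 was lost (chi-square adjusted p = 0.0511). Mmp16 also entered the test and was called without library 1 (adjusted p = 3.47e-20) or library 3 (7.99e-12). Calls lost with 1 library left out stand beside their genes. With the longest coding transcript as length, also chosen after seeing the data, 11 of 20 means moved by more than 1 SD, and among the 20 by over 1.5 times those of Mmp14 (40.1 FPKM), Timp3 (25.5), Mmp23 (6.94), Adamts9 (2.91) and Mmp28 (1.79). No paired analysis was possible because only libraries of 1 group were used. Genes under 1 FPKM rest on few reads, which limits their differences.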
